A study of Homo sapiens with 48 samples.

Results

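In 2 RNA sequencing libraries of differentiating human embryonic stem cells, both labelled DMSO_S9, a small set of genes lay far below the other 46 libraries or far above them. Some of the genes were close to silent on one side, while CASP8, ZNF667 and ZNF681 were lower in DMSO_S9 but still measurable. The set holds 10 of the 19253 genes in the table. Relative to the other libraries, CRYZ, TYW3, ZNF680 and ZNF248 were high in DMSO_S9, and NLRP2, ZNF681, ZNF560, ZNF667, TCEAL2 and CASP8 were low. They were chosen by their symbols, because both DMSO_S9 libraries lie far from all others in these genes. Their distance in DMSO_S9 is therefore a description and was not tested.

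The labels give the cells as H9, an established human embryonic stem cell line labelled as wild type, grown as a monolayer in E6 medium. The 24 groups hold 2 libraries each: D0, untreated cells of day 0, and 23 groups exposed for 8 days. DMSO was the solvent group and DMSO_S9 received DMSO with S9. ACE, CYC, IMI, TDCIPP, TEP and TPHP were each given with and without S9, the former groups being ACE_S9, CYC_S9, IMI_S9, TDCIPP_S9, TEP_S9 and TPHP_S9. BHT, BHT_CHO, BHT_COOH, BHA, TBHQ, DTBP, DG, AO_2246 and AO168_O were given without S9. The labels give neither doses nor what S9 is (in toxicology it usually names a liver fraction that metabolises test compounds), and they do not say whether the libraries of a group came from separate cultures, so p-values measure only the spread between libraries.

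Library totals ran from 17918844 to 20096084 counts, with 18453058 and 19214922 in DMSO_S9. In a check for mixed-up samples, 2 of the 48 libraries did not match the labelled cell line. The labels alone therefore do not establish which cells a library came from, and in DMSO_S9, a group of 2 libraries that stand apart, treatment and source of the cells cannot be told apart. Every value given for DMSO_S9 is that of the libraries so labelled. The cell type was checked against 10 pluripotency markers, which summed to 7967 to 7982 CPM (read counts relative to the library total, scaled between libraries) on D0, to 2118 to 2158 CPM in DMSO_S9 and to 3033 to 5178 CPM in the other day 8 libraries. All 10 had counts in DMSO_S9, but POU5F1, which defines the undifferentiated state, averaged 55.1 ± 0.187 CPM there (SD, n = 2) against 695 ± 241 CPM in DMSO.

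The genes have unlike roles. ZNF680, ZNF248, ZNF681, ZNF560 and ZNF667 belong to the zinc finger genes, many of which carry a KRAB domain that recruits the corepressor TRIM28 (KAP1) to DNA, often at transposable elements. NLRP2 belongs to the NLRP family, which includes inflammasome sensors, and is known for a maternal role in the oocyte. CASP8 encodes caspase-8, the initiator protease of death receptor signalling, which also restrains necroptosis. CRYZ encodes zeta-crystallin, an NADPH-dependent quinone reductase, TYW3 encodes an enzyme of wybutosine synthesis, a modification of phenylalanine tRNA, and TCEAL2 is an X-linked member of the TCEAL and BEX family.

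In GENCODE 29 (GRCh38), CRYZ lies on the minus strand at chr1:74705482-74733408 and TYW3 on the plus strand at chr1:74733152-74766678, so that their 5′ ends overlap. ZNF680 lies at chr7:64519884-64563106 (minus), ZNF248 at chr10:37776526-37858106 (minus) and CASP8 at chr2:201233443-201287711 (plus). Chromosome 19 holds 4 of the 10 genes: ZNF560 at chr19:9466507-9498607 (minus), ZNF681 at chr19:23739195-23758891 (minus), NLRP2 at chr19:54953130-55001142 (plus) and ZNF667 at chr19:56439325-56478065 (minus). TCEAL2 lies at chrX:102125688-102127711 (plus). The table counted reads per whole gene and holds no coordinates.

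The stretches before their starts are shown for a few of them. These are the 250 bases upstream of the RefSeq start (GRCh38.p14), on the gene's strand, with CG dinucleotides, the sites of DNA methylation, in capitals. RefSeq lists 2 windows for NLRP2 and 3 each for ZNF248 and CASP8, and the outermost was taken; that of NLRP2 lies inside the gene as GENCODE places it. CRYZ is shown because its window holds the start of TYW3 too, ZNF680 and ZNF681 because they resemble each other and moved in opposite directions, and NLRP2 and TCEAL2 because they were low.
CRYZ, chr1:74733051-74733300, minus strand: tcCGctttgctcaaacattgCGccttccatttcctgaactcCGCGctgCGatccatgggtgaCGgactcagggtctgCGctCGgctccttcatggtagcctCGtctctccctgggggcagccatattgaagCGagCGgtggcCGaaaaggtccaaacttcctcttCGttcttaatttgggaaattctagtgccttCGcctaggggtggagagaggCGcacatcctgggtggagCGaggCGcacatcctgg
ZNF680, chr7:64563072-64563321, minus strand: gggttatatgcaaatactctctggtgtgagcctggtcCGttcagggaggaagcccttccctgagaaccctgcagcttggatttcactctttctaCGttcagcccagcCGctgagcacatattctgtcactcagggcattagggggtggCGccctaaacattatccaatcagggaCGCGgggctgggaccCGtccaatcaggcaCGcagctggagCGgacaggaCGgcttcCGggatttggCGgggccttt
ZNF681, chr19:23758892-23759141, minus strand: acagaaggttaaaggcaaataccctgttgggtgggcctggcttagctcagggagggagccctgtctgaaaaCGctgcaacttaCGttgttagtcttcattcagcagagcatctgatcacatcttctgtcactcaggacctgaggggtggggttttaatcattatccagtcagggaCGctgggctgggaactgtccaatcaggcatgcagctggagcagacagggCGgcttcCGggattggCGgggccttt
NLRP2, chr19:54965034-54965283, plus strand: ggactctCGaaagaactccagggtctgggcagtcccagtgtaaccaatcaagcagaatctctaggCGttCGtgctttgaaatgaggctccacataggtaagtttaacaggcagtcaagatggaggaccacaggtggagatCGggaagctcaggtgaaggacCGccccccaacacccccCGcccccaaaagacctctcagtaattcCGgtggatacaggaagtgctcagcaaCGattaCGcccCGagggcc
TCEAL2, chrX:102125429-102125678, plus strand: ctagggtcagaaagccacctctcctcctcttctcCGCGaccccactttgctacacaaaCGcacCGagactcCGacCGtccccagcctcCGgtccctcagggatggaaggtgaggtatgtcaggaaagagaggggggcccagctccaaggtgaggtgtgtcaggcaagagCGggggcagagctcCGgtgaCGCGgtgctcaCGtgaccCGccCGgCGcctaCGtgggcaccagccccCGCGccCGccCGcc

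RefSeq promoter windows were matched for 9 of the 10 genes, all but TYW3. The RefSeq 5′ ends of CRYZ and TYW3 lie 101 bases apart, and the start of TYW3 falls at base 149 of the CRYZ window, counted from the window's 5′ end. The ZNF680 and ZNF681 windows were identical in 199 of 257 alignment columns (77.4%), whereas the next most alike of the 36 pairs, ZNF680 and ZNF560, reached 49.1%. The windows held 6 CG (ZNF681, CASP8) to 35 CG (ZNF667), and 6 of the 9 were at or above the median of 11 CG over 35116 windows of this length. Searched on both strands, CCAAT was found in 6 of the 9 windows (32% of all windows), GGGCGG in 6 (42.6%) and CCGGAAG in ZNF680 and ZNF681 (8.52%). GGGCGG and CCGGAAG each hold a CG of their own. A match is a description of the sequence only.

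CRYZ and TYW3 were at or near 0 in every library except those of DMSO_S9. CRYZ stood at 31.4 and 28.5 CPM in DMSO_S9 and between 0 and 0.159 CPM in the other 46 libraries, 24 of which held no read of it. Summed over libraries, 1181 counts in DMSO_S9 stood against 33 in the other 46, a ratio of 797 after scaling to depth (95% interval 564 to 1163, exact for the sums and covering counting error only). TYW3 stood at 20.6 and 18.6 CPM in DMSO_S9 and between 0 and 0.368 CPM elsewhere, a ratio of 153 (125 to 188). In deposited TPM, a level per length, CRYZ reached 35.7 and 32.5 and TYW3 18.4 and 18.1 in DMSO_S9. These neighbours overlap in GENCODE 29 but not in RefSeq. Because strand is not stated, reads from any such overlap cannot be told apart.

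The zinc finger genes ZNF680 and ZNF248 were the other high pair. ZNF680 stood at 31.7 and 28.2 CPM in DMSO_S9, whereas the other 46 libraries lay between 0 and 0.77 CPM with a median of 0.256. The ratio of summed counts was 112 (97.2 to 129). ZNF248 stood at 31.8 and 31.3 CPM against 0.208 to 1.65 CPM, median 0.597, a ratio of 50.9 (46 to 56.4). Both had their highest value outside DMSO_S9 in the same library, DG replicate 1, which also had the lowest total, 17918844 counts. ZNF248 was detected in all 46 other libraries, and ZNF680 in all but 1.

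NLRP2 was the gene whose DMSO_S9 libraries lay farthest from the others. It stood at 0.155 and 0.248 CPM in DMSO_S9, 8 counts in all. The other day 8 libraries lay between 83.9 and 117 CPM, and D0 at 255 and 303 CPM. The ratio of summed counts was 538-fold lower in DMSO_S9 (273 to 1246). Over the other 44 day 8 libraries NLRP2 had the lowest coefficient of variation of the 10 genes, 7.35%.

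The remaining zinc finger genes, ZNF560, ZNF681 and ZNF667, were low in DMSO_S9 to unequal degrees. ZNF560 stood at 0.207 and 0.149 CPM against 8.82 to 17.5 CPM elsewhere, 75.9-fold lower (36.8 to 189). ZNF681 stood at 1.5 and 1.04 CPM against 10.9 to 28.4 CPM, 18-fold lower (13.6 to 24.2). ZNF667 stood at 1.60 and 2.23 CPM against 8.63 to 17.2 CPM, 7.74-fold lower (6.18 to 9.83). ZNF681 and ZNF667 thus kept a measurable level in DMSO_S9, with 50 and 76 counts over both libraries, while ZNF560 had 7. Zinc finger genes have near-identical relatives among which reads can be split, so these levels are uncertain to that extent.

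TCEAL2 stood at 0.310 and 0.397 CPM in DMSO_S9 against 9.88 to 24.7 CPM in the other 46 libraries, 47.5-fold lower (28.3 to 87). CASP8 was the mildest of the 10: it stood at 2.79 and 3.03 CPM against 10.6 to 20.04 CPM, 5.31-fold lower (4.42 to 6.44), with 115 counts left. No other library of any group came near the DMSO_S9 values in any of the 10 genes, and the replicates of DMSO_S9 lay close together in each. In bulk RNA, fewer cells that express a gene and less of its RNA per cell cannot be told apart.

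**Figure D1:**
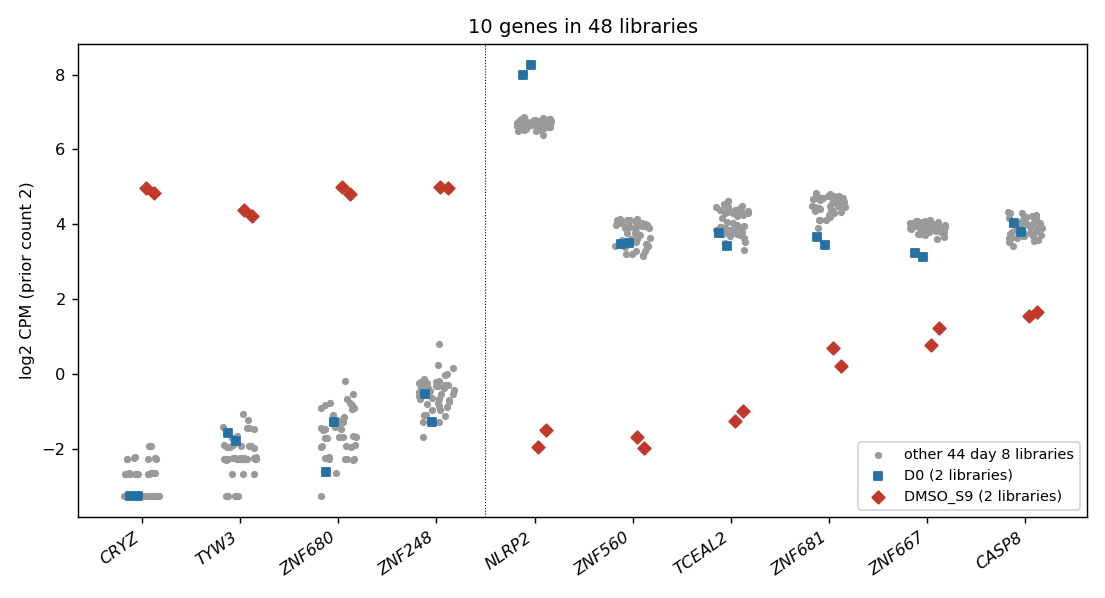
Each point is 1 of 48 libraries; the vertical axis is log2 CPM (TMM-scaled, prior count 2), the horizontal axis the gene, and diamonds, squares and dots are DMSO_S9, D0 and the other 44 day 8 libraries. The 4 genes left of the dotted line are high in both DMSO_S9 libraries and the 6 to its right are low, and D0 stands apart from the other day 8 libraries in NLRP2, ZNF681 and ZNF667.

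How far the libraries lay apart was measured for every gene as a gap: the log2 CPM distance from the DMSO_S9 libraries to the nearest of the other 46, positive where both DMSO_S9 libraries were higher. Of 14744 genes with a mean of at least 1 CPM on either side, 33.7% had DMSO_S9 libraries wholly above or below all others, 2393 higher and 2574 lower. The 10 genes were chosen for this and the share is their background only. Their gaps were -7.90 for NLRP2, 6.76 for CRYZ, 5.31 for TYW3, 5.02 for ZNF680, -4.84 for ZNF560, -4.31 for TCEAL2, 4.16 for ZNF248, -2.77 for ZNF681, -1.90 for ZNF667 and -1.77 for CASP8.

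NLRP2, CRYZ and TYW3 held ranks 1, 2 and 3 of all genes by absolute gap, and ZNF680 and ZNF560 ranks 6 and 8. At the other end CASP8 held rank 194, so that 184 genes outside the set lay at least as far away. In all, 149 genes had an absolute gap of at least 2 and 47 of at least 3, of which 9 were higher and 38 lower. The genes just inside and outside CASP8 were MCOLN3 (-1.77, lower) and RASA4 (1.77, higher). Chromosome Y genes and XIST were left out of this ranking.

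**Figure D2:**
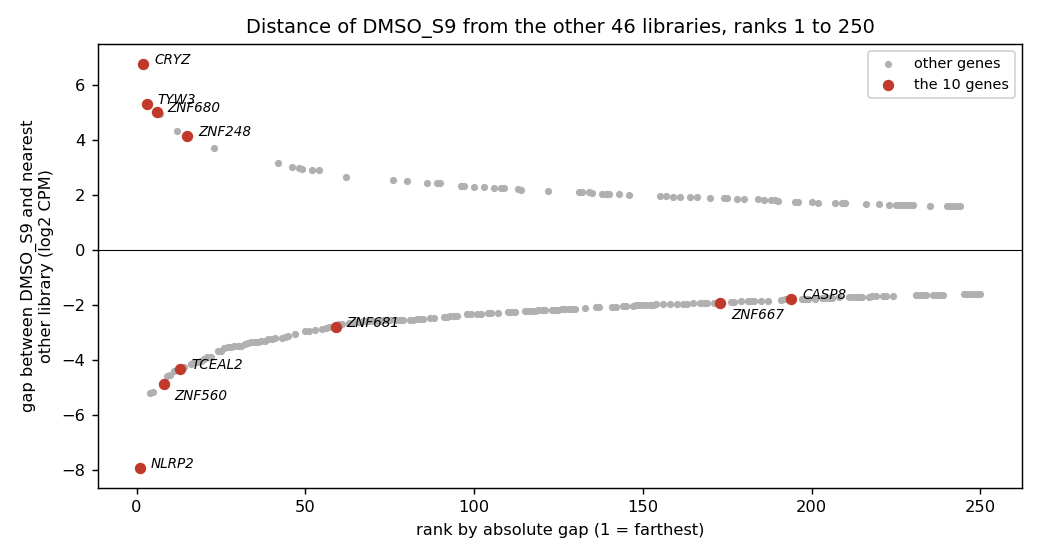
The vertical axis is the signed gap in log2 CPM between the DMSO_S9 libraries and the nearest of the other 46, and the horizontal axis the rank by absolute gap, for ranks 1 to 250. NLRP2 at -7.90 and CRYZ at 6.76 stand at the extremes, whereas ZNF667 and CASP8 lie within the dense run of other genes at -1.90 and -1.77.

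The 10 genes outside the set with the largest absolute gap were ERVH48-1, SERPINB9, NNAT, CR1L, SCGB3A2, LOC107986113, KIF25, LOC107984203, ZNF572 and KIAA0040. NNAT, an imprinted gene expressed in the developing brain, averaged 495 CPM in DMSO_S9 and lay between 2.34 and 15.2 CPM in the other libraries (gap 4.95). ERVH48-1, derived from an endogenous retrovirus, averaged 1.42 CPM against 59.8 to 342 CPM (gap -5.19). SERPINB9, a granzyme B inhibitor, averaged 4.17 CPM against 161 to 806 CPM (gap -5.15). CR1L had no count in DMSO_S9 and 2.35 to 11.6 CPM elsewhere; with a limit of 3 counts in 1 library (0.155 CPM) it was at least 39.2-fold lower than in DMSO.

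Since 5 of the 10 genes carry a ZNF number, all such genes were counted. Of 488 ranked ZNF-numbered genes, 136 (27.9%) had DMSO_S9 libraries wholly outside the others, 84 higher and 52 lower, and 7 (1.43%) had an absolute gap of at least 2, beside 33.7% and 1.01% of all genes. Those 7 were ZNF680, ZNF560, ZNF248 and ZNF681 from the set and ZNF572 (gap -4.12), ZNF732 (2.46) and ZNF280D (2.34) outside it. Of the 1135 ranked genes of chromosome 19, 338 (29.8%) were apart.

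Differentiation was the first comparison that the choice of genes had not used. DMSO after 8 days was compared with D0 by edgeR's quasi-likelihood test with Benjamini-Hochberg adjustment over all genes; an adjusted p under 0.05 counted as a change. All 10 genes passed the filter on low counts in this fit, CRYZ and TYW3 only through DMSO_S9. Of the other 8, 4 changed, where 58.2% of all genes did (29.1% in each direction). NLRP2 fell from 255 and 303 CPM on D0 to 100.02 and 97.7 CPM in DMSO, so the log2 fold change was -1.5 (SE 0.11) with an adjusted p of 4.68e-12.

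Of the genes low in DMSO_S9, 3 rose from D0 to DMSO. ZNF681 went from 12.5 and 10.9 to 28.4 and 22.2 CPM, a rise of 1.11 in log2 CPM (adjusted p 5.49e-08, SE 0.14). TCEAL2 went from 13.6 and 10.6 to 19.9 and 22.5 CPM (0.80, SE 0.15, adjusted p 4.45e-05), and ZNF667 from 9.35 and 8.63 to 14.7 and 15.3 CPM (0.73, SE 0.14, adjusted p 8.35e-05). D0 and DMSO did not overlap in these genes, but they did not overlap in ZNF560 either, which did not pass. The share of all genes without overlap was not computed here, so non-overlap sets these genes apart in no way. That the D0 levels of all these genes were above those of DMSO_S9 in both libraries was fixed by the choice of genes.

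CASP8, at 15 ± 1.97 CPM on D0 and 14.9 ± 0.329 CPM in DMSO (SD, n = 2), did not pass (log2 fold change -0.02, SE 0.12, adjusted p 0.896). ZNF560 did not pass either (0.19, SE 0.15, adjusted p 0.283). The genes high in DMSO_S9 were low on both days, and that they lay below DMSO_S9 there was fixed by their choice. ZNF680 averaged 0.18 CPM on D0 and 0.229 CPM in DMSO, and ZNF248 0.441 and 0.508 CPM. TYW3 averaged 0.207 and 0.102 CPM, and CRYZ 0 and 0.0509 CPM. ZNF680 and ZNF248 did not pass (adjusted p 0.743 and 0.766). CRYZ and TYW3 held too few reads outside DMSO_S9 for this test to show a change in them.

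S9 was also given with 6 compounds, in 24 libraries that exclude DMSO and DMSO_S9, and its average effect was tested there with compound as a term. NLRP2 rose with S9, from a mean of 98.2 to 107 CPM (log2 difference 0.13, SE 0.04, adjusted p 0.00957, edgeR), and TCEAL2 from 13 to 15.1 CPM (0.21, SE 0.05, adjusted p 0.00273). Of all genes, 49.7% changed in this test and 24.5% rose. ZNF681, ZNF560, ZNF667, CASP8, ZNF680 and ZNF248 did not pass, with adjusted p between 0.148 and 0.856. CRYZ and TYW3 were too low to be tested: with S9 they averaged 0.0532 and 0.137 CPM, and without it 0.0343 and 0.107 CPM. That the 12 libraries with a compound and S9 lie apart from DMSO_S9 in the 10 genes was fixed by the choice of genes and is no result of this test.

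Among the 22 day 8 groups other than DMSO_S9, levels of CASP8, TCEAL2, ZNF560 and ZNF681 differed between groups, where 41.9% of all genes did (edgeR quasi-likelihood test on all groups at once; adjusted p 1.07e-05 for CASP8, 2.56e-06 for TCEAL2, 2.57e-05 for ZNF560 and 0.00103 for ZNF681). NLRP2, ZNF667, ZNF680 and ZNF248 did not pass, with adjusted p between 0.173 and 0.859. CRYZ and TYW3, which passed the filter only through DMSO_S9, held at most 3 and 7 counts in any library tested, too few for this test to show a change. The choice of genes favoured those whose other libraries lie together, which limits what this test can show.

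CASP8 separated the 6 compounds that were also given with S9 from the 9 that were not. Its 24 libraries of ACE, CYC, IMI, TDCIPP, TEP and TPHP, with and without S9, lay between 15.7 and 20.04 CPM, and its 18 libraries of the other 9 compounds between 10.6 and 15 CPM. The ranges did not overlap, as in 1.21% of all genes. Group means ran from 19.8 ± 0.403 CPM in IMI and 18.7 ± 0.214 CPM in CYC to 11.9 ± 1.87 CPM in DTBP (SD, n = 2), and most neighbours in that order overlapped. DMSO stood at 14.7 and 15.1 CPM and D0 at 16.4 and 13.6 CPM, near the boundary of both ranges.

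ZNF560 and TCEAL2 showed such a separation among the libraries without S9, as did CASP8; 8.6% of all genes did. ZNF560 lay between 14.7 and 17.5 CPM in the 12 libraries of the 6 compounds and between 8.82 and 13.4 CPM in the 18 of the 9 others. TCEAL2 went the other way, with 9.88 to 15.4 CPM in the 12 and 16.5 to 24.7 CPM in the 18. With the S9 libraries included, the ranges of both genes met: ZNF560 reached down to 13 CPM and TCEAL2 up to 19.4 CPM. Whether these compounds were handled in 1 batch is not given, so that compound and batch cannot be told apart.

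**Figure D3:**
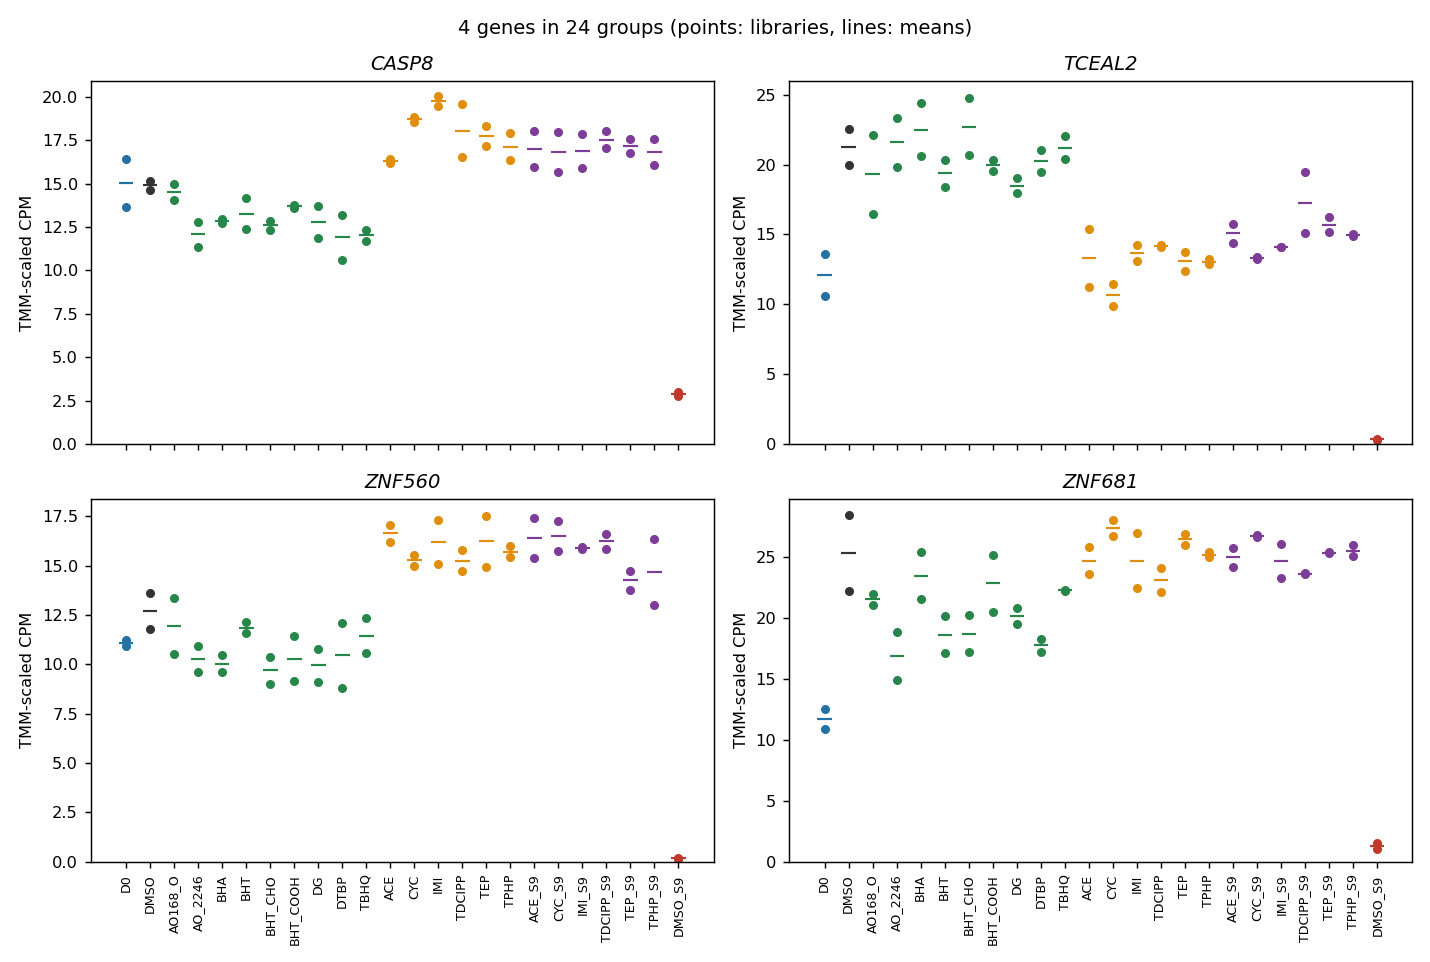
The vertical axes are TMM-scaled CPM from 0 and the horizontal axis the 24 groups, with 1 point per library and a line at each mean; colours mark D0, DMSO, the 9 compounds without S9 libraries, the 6 compounds without and with S9, and DMSO_S9 at the far right. CASP8 and ZNF560 stand higher in the 6 compounds than in the 9, TCEAL2 stands lower, and DMSO_S9 lies below all groups in each panel.

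Each of the 15 compounds without S9 was also compared with DMSO, 15 tests that share the DMSO libraries. Over the 10 genes, 11 of these tests passed, and fewer did without DMSO replicate 1. Over all 16113 genes the 15 tests gave 16649 calls, about as many per gene, so the sum sets the 10 genes apart in no way. TCEAL2 fell in ACE, CYC, IMI, TDCIPP, TEP and TPHP, where 8.55%, 29.6%, 6.21%, 9.06%, 12.7% and 11.3% of all genes changed and 3.6%, 15.2%, 2.74%, 3.56%, 5.89% and 4.83% fell. TCEAL2 passed in none of the 9 others. Its largest fall was in CYC, from 19.9 and 22.5 CPM in DMSO to 9.88 and 11.5 CPM (log2 difference -0.99, SE 0.15, adjusted p 3.17e-05, edgeR). In the other 5 its log2 fold change lay between -0.70 in TPHP and -0.58 in TDCIPP. The calls in IMI and TDCIPP ended without replicate 2 of the compound or without either DMSO library, that in ACE without its replicate 2 and that in TPHP without its replicate 1.

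ZNF681 fell in AO_2246, BHT and DTBP, where 10.5%, 4.6% and 3.07% of all genes changed and 4.65%, 1.65% and 0.794% fell. Its log2 fold changes were -0.58 (adjusted p 0.0076), -0.44 (adjusted p 0.0494) and -0.51 (adjusted p 0.0321, edgeR). CASP8 rose in CYC from 14.7 and 15.1 to 18.6 and 18.9 CPM (0.33, SE 0.11, adjusted p 0.0291, edgeR) and in IMI to 19.5 and 20.04 CPM (0.41, SE 0.11, adjusted p 0.0307); of all genes, 14.4% rose in CYC and 3.48% in IMI. Both CASP8 calls were lost without any 1 of the 4 libraries compared. The BHT call was lost without BHT replicate 1 or DMSO replicate 1, with no filter on low counts (adjusted p 0.0573) and with DMSO_S9 and DG replicate 1 out of the fit (adjusted p 0.0511). The ZNF681 call in AO_2246 was lost without AO_2246 replicate 1 or DMSO replicate 1, and that in DTBP without either DTBP library or DMSO replicate 1.

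NLRP2, ZNF560, ZNF667, ZNF680 and ZNF248 passed in none of the 15 tests, nor did CRYZ and TYW3, whose counts were too low for these tests to show a change. In AO168_O no gene at all passed by edgeR's test (918 at an unadjusted p under 0.05) and none by DESeq2. In BHA and BHT_COOH 0.00621% did, in TBHQ 0.161%, in BHT_CHO 2.15% and in DG 5.49%. For NLRP2 the 15 log2 fold changes lay between -0.15 and 0.12 and for ZNF667 between -0.15 and 0.15. Those of ZNF560 lay between -0.38 and 0.39, with the lowest adjusted p, 0.0982, in ACE.

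Genes beside the 10 on their chromosomes were read in DMSO_S9 against DMSO, since that contrast chose the 10 but not their neighbours. Of all genes, 45.7% changed there (21% higher, 24.7% lower). Up to 2 annotated protein-coding genes on each side gave 36 distinct genes outside the set. Of these, 29 could be tested: 7 were higher, 6 lower and 16 did not pass. The share that changed was near that of all genes, so it sets the neighbours apart in no way. Without DMSO replicate 1, 4540 genes outside the set passed in place of 7359, and the calls of ARMCX2, ZNF107 and ZNF91 named below were lost; that of ZNF91 was also lost without either DMSO_S9 library. No neighbour had an absolute gap of 2 or more, which only 1.01% of all ranked genes had. The 10 genes were chosen for their distance, so their larger gaps beside these neighbours are no result.

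Some neighbours of CASP8 and NLRP2 were lower in DMSO_S9, while TRAK2, near CASP8, did not pass (log2 difference -0.24, adjusted p 0.256, edgeR). CFLAR and CASP10 encode the caspase-8 relatives c-FLIP and caspase-10 and lie on the same side of CASP8. CFLAR fell from 385 ± 13.5 to 100.2 ± 3.46 CPM (log2 difference -1.94, SE 0.23, adjusted p 1.88e-07, edgeR). CASP10, which is next to CASP8, fell from 57.9 ± 2.57 to 14.8 ± 0.396 CPM (-1.97, SE 0.27, adjusted p 1.9e-06). NLRP7, next to NLRP2 and likewise a gene of the oocyte, fell from 2.42 ± 0.815 to 0.103 ± 0.146 CPM (-4.49, SE 0.57, adjusted p 5.21e-07), while RDH13 and GP6 on the other side of NLRP2 did not pass. BEX5, near TCEAL2, fell (-1.61, SE 0.26) and ARMCX2 on its other side rose (0.32, SE 0.08).

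Beside the high genes the picture was mixed. Of the genes near ZNF248, FZD8, ZNF25 and ZNF33A rose, with log2 fold changes of 1.91 (SE 0.36), 2.31 (SE 0.44) and 1.06 (SE 0.23). ANKRD30A, between FZD8 and ZNF248, was too low to be tested. LHX8, the gene after TYW3, fell by 4.51 on the log2 scale (SE 0.54), and SLC44A5 beyond it rose by 1.43 (SE 0.26). Beside ZNF680, ZNF107 rose (0.88, SE 0.24), whereas ZNF138 and ZNF736 did not pass. None of the 4 neighbours of ZNF560 or of ZNF667 passed, with adjusted p between 0.0614 and 0.748 for ZNF560 and between 0.0643 and 0.269 for ZNF667. Beside ZNF681, ZNF91 rose (0.59, SE 0.19) and ZNF675 fell (-0.69, SE 0.19).

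**Figure D4:**
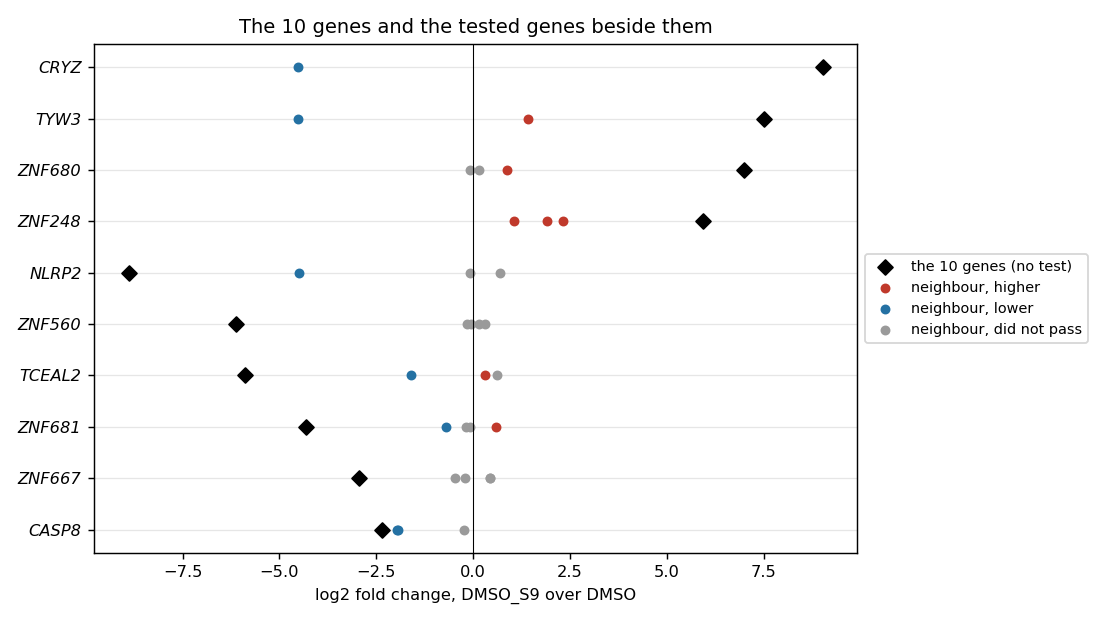
The horizontal axis is the log2 fold change of DMSO_S9 over DMSO and each line of the vertical axis 1 of the 10 genes (black diamonds, not tested) with its tested neighbours as dots coloured by the edgeR call. The diamonds reach from -8.89 for NLRP2 to 9.03 for CRYZ, and the dots of ZNF560 and ZNF667 lie near 0 while those of CASP8 include CFLAR at -1.94 and CASP10 at -1.97.

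Other genes of the same pathways were read in the same contrast from lists. Beside each list stand the 21% of all genes that rose in it and the 24.7% that fell. In the caspase-8 and death receptor pathway, 3 of 14 tested genes rose and 5 fell. The median log2 fold change was -0.33, where the median of all genes was 0.00. The 5 include CFLAR and CASP10, given above as neighbours of CASP8. TNFRSF10B, a TRAIL receptor, rose from 115 ± 11.8 to 186 ± 5.10 CPM (0.69, SE 0.18), a call lost without DMSO replicate 1 (adjusted p 0.0563). The adaptor FADD (-0.30, adjusted p 0.0844) and RIPK1 (-0.35, adjusted p 0.0888) did not pass.

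Of 9 tested NLRP and inflammasome genes, 5 fell and none rose (median -1.91). The 5 include NLRP7, given above as a neighbour of NLRP2. NLRP4 had no count in DMSO_S9, against 1.53 and 1.83 CPM in DMSO, and was at least 10.8-fold lower by a limit of 3 counts in 1 library. PYCARD, the adaptor ASC, fell from 11 ± 0.411 to 2.41 ± 0.249 CPM (-2.18, SE 0.37), and NLRP12 and NLRP11 fell as well, NLRP11 from 0.534 CPM to 1 read over both libraries. In the subcortical maternal complex of the oocyte, 2 of 3 tested genes fell, NLRP7 and TLE6 (-1.23, adjusted p 0.0184, a call lost without DMSO replicate 1 or DMSO_S9 replicate 2).

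The other enzymes of wybutosine synthesis did not move with TYW3: of 6 tested, TYW1 fell (-0.36, SE 0.09) and 5 did not pass. Of 10 tested zeta-crystallin-like genes and quinone reductases, 2 rose and 5 fell, among them NQO2 (-1.22, SE 0.20), VAT1L (-1.18, SE 0.29) lower and PTGR1 (0.58, SE 0.17) higher, the last lost without DMSO replicate 1 (adjusted p 0.0561). CRYZL1, the closest in name to CRYZ, did not pass (0.32, adjusted p 0.117). In the TCEAL and BEX family, 2 of 12 tested genes rose and 5 fell (median -0.29); the largest fall was that of BEX5, given above.

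In a list of 16 genes drawn up for corepressors of KRAB zinc finger proteins, 5 rose and 2 fell (median 0.01). The list also holds ZFP57, itself a KRAB zinc finger protein and no corepressor. ZFP57 and DAXX (-0.31, SE 0.07) were the 2 that fell. TRIM28 did not pass (-0.09, adjusted p 0.471), at 819 ± 5.47 CPM in DMSO_S9 and 873 ± 71.0 CPM in DMSO. ZFP57, a zinc finger protein that keeps methylation at imprinted loci, fell from 1.09 ± 0.114 to 0.227 ± 0.0292 CPM (-2.23, SE 0.50). Of 10 genes with a part in DNA methylation or its removal, not all of them enzymes of it, 2 rose and 2 fell. DNMT3B fell from 1835 ± 249.7 to 438 ± 0.812 CPM (-2.07, SE 0.33). DNMT3L fell from 2.98 ± 0.339 to 0.227 ± 0.0292 CPM (-3.67, SE 0.56), while UHRF1 and TET2 rose by 0.55 and 0.84. The UHRF1 call was lost without either DMSO library or DMSO_S9 replicate 1, and the TET2 call without DMSO replicate 2 or DMSO_S9 replicate 2.

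**Figure D5:**
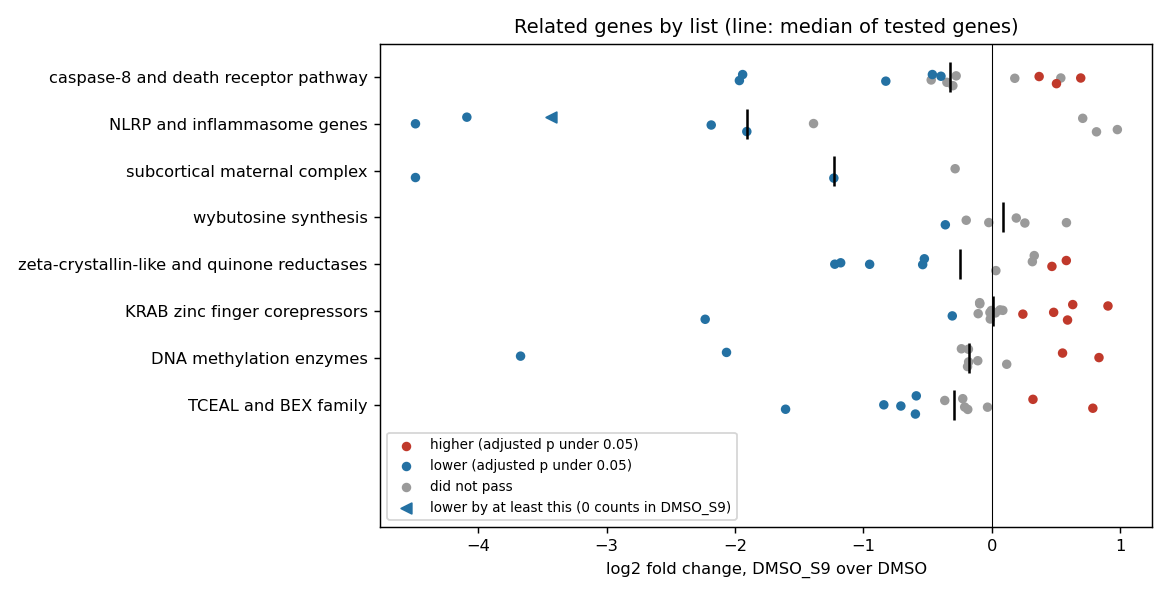
The horizontal axis is the log2 fold change of DMSO_S9 over DMSO and each line of the vertical axis a list of related genes, with dots coloured by the edgeR call and a black line at the median of the tested genes; the triangle is NLRP4 at its bound. The NLRP list has its median at -1.91, whereas the corepressor list has its median at 0.01.

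Markers of cell types were also read in DMSO_S9 against DMSO, where 21% of all genes rose and 24.7% fell. Of 10 pluripotency markers, 9 fell and SOX2 did not pass. Neural ectoderm markers had 3 higher and 3 lower of 10, summing to 1731 to 1779.5 CPM in DMSO_S9 and 353 to 1610.0 CPM in the other day 8 libraries. Surface ectoderm markers had 3 higher of 10 (2386 to 2482 CPM against 1470.1 to 7485 CPM). Fibroblast markers had 4 higher and 1 lower of 8 tested, with COL1A2 and COL3A1 higher by 2.06 and 3.15. They summed to 769 to 818 CPM against 246 to 553 CPM, but to 1149 to 1515 CPM in the stem cells of D0. DCN, FAP and LUM averaged only 0.155, 0.178 and 0.302 CPM in DMSO_S9. Mesendoderm markers had 3 lower of 6 tested (13 to 14.9 CPM against 21.1 to 31.4 CPM), and CER1 was at 0 in DMSO_S9, as was SOX17, which was also at 0 in DMSO. Hepatocyte markers had 1 higher and 2 lower of 7 tested and summed to 3.97 to 6.88 CPM, within the 3.20 to 6.90 CPM of the other day 8 libraries. The part of these cell types in the values of the 10 genes was not tested.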

How the data were processed

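RNA was measured in 48 libraries. The authors deposited expected counts per gene (read counts with decimals) and TPM, per the file headers. Mapping used GRCh38.p13 per the submitters' processing notes, and for the aligner, counter and strand setting nothing is stated in the sources used. Expected counts were rounded, which changed 43.4% of values, and tested with glmQLFit and glmQLFTest of edgeR 4.0.16 under R 4.3.3, after TMM scaling and filterByExpr, with 1 coefficient per group and Benjamini-Hochberg adjustment per comparison at 0.05. Day 8 comparisons used 46 libraries (16113 genes), DMSO against D0 48 (16209) and S9 in 6 compounds 24 (15795). Gaps used log2 CPM with a prior count of 2. DESeq2 1.42.0 was an alternative. On simulated counts the test of DMSO against D0 (15930 genes) recovered 16 of 50 genes changed 1.5-fold, 36 of 50 changed 2-fold and 50 of 50 changed 4-fold. That of S9 in 6 compounds (15646 genes) recovered 2 of 50 changed 1.1-fold, 23 of 50 changed 1.2-fold and 48 of 50 changed 1.5-fold. Smaller changes could thus be missed in both. Replicate numbers were not taken to pair the samples: nothing in the labels ties them, and the correlation of replicate differences was 0.11 for DMSO and D0 and ran from -0.486 to 0.605 over all pairs of groups, with a median of -0.0157. The median chi-square between replicates, a measure on the squared scale, was 1.86 (DMSO_S9) to 12.3 (D0) times that of counting error, so none were merged. The genes and lists were chosen with earlier results of these data known. Named genes were the 10 genes, the 10 others of largest gap, up to 2 neighbours on each side, and from each list the genes with an adjusted p under 0.05 and a log2 fold change of at least 1 and other list genes chosen after their values were seen. Promoter windows are RefSeq's and were aligned with Biopython 1.88.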

Additional observations from a re-analysis of the deposited data

Results flagged for a closer look

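For 2 of the 10 genes, libraries with S9 were lower than those without it in DMSO and higher in the 6 compounds. NLRP2 was lower in both DMSO_S9 libraries than in DMSO, whereas all 12 libraries with a compound and S9 lay above the mean of the same compound without S9. TCEAL2 showed the same in all 12 libraries. Of the 10 genes, 8 could be tested for S9 in the 6 compounds, and NLRP2 and TCEAL2 were the 2 that rose. That is near the 24.5% of all genes that rose there, so the rise sets the 2 genes apart in no way. The share of all genes with all 12 libraries above those means was not computed. The fall in DMSO_S9 chose both genes, so that side was fixed in advance and the difference between the 2 sides was not tested. In DMSO_S9, treatment and source of the cells cannot be told apart, so its fall cannot be assigned to S9.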

How the results depend on the processing

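With 2 libraries per group, precision is limited, and ratios against near-silent genes rest on few reads. RLE factors in place of TMM, no filter on low counts and DESeq2 left the counts of genes and of the 10 in all 5 comparisons within 1.5 times. So did a fit of only the groups compared, run for DMSO against D0 and DMSO_S9 against DMSO, and a fit without DMSO_S9 and DG replicate 1, run for all but S9 in 6 compounds (for DMSO_S9 against DMSO, only DG replicate 1 was left out). No direction reversed in these. The 10 genes kept the sign of their gap in all alternatives for that measure, including deposited TPM, where 264 genes lay at least as far as the nearest of the 10, beside 194. The size of the gap moved by more than the replicate SD for 7 of the 10 with TPM, 7 with a prior count of 0.5 and 2 with DG replicate 1 set aside. With 1 library left out in turn, DMSO against D0 gave 7983 to 8741 genes and 4 of the 10 each time, S9 in 6 compounds 7281 to 8162 genes and 2 of the 10, the test over 22 groups 5647 to 7152 genes and 4 to 5 of the 10 (ZNF680 passing without BHT replicate 2), and the gap 209 to 236 genes. DMSO_S9 against DMSO gave 4540 to 6761 genes outside the set and 10 to 14 neighbours, and the 15 compound tests summed to 3763 to 19445 gene calls (16649 with all libraries) and 4 to 12 calls among the 10. The lowest of each of these, 4540, 3763 and 4, came without DMSO replicate 1; fewer samples are compared there, and the cause was not tested further. With the replicate number as a block, DMSO against D0 gave 9642 genes and 4 of the 10, S9 in 6 compounds 8349 and 2, DMSO_S9 against DMSO 7636 genes and 15 neighbours, the test over 22 groups 7436 and 4, and the compound tests 19744 and 11; the block ended none of the named calls.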
